A study of Mus musculus with 9 samples.

Results

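The genes described here encode the chemokines and chemokine receptors of mouse skin other than those best known for attracting neutrophils. They were taken by symbol: every gene whose name begins with Ccl, Ccr, Cxcl, Cxcr, Xcl, Xcr, Cx3cl, Cx3cr or Ackr followed by a digit, without Cxcl1, Cxcl2, Cxcl3, Cxcl5, Cxcr1 and Cxcr2. The rule gave 57 of the 56859 genes in the count table, namely 36 ligands, 17 receptors and 4 atypical receptors. Bulk RNA sequencing covered 9 libraries of back skin that had been shaved, 3 in each of 3 groups. The skin of 1 group received IMQ for 7 days and bergapten for 2 days, that of the next IMQ for 7 days without bergapten, and that of the last vaseline for 7 days. Values given with bergapten are those of the group that received both agents, and values given with IMQ those of the group without bergapten. All groups were Balb/c mice with the genotype WT, kept SPF (specific pathogen free) and 6 to 8 weeks old. IMQ (imiquimod) activates Toll-like receptor 7, and as a cream it inflames mouse skin in a way that resembles psoriasis. Bergapten is a furanocoumarin made by plants. No group with IMQ and a gel lacking bergapten is named in the labels, so bergapten and its gel base cannot be told apart. They do not state that the libraries of a group came from separate animals, so the p-values measure no more than the spread among these samples, and that spread may be technical.

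Chemokines are small secreted proteins that steer leukocytes along gradients by binding G protein-coupled receptors on the cell surface. In skin they are made by keratinocytes, fibroblasts, vessels and resident immune cells, and the receptor a leukocyte carries decides which of these signals it can follow. Atypical receptors bind chemokines without the usual G protein signal, and several of them remove their ligands from the tissue.

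Promoters of 5 ligands are shown as examples, and the ligands that changed most with IMQ, Cxcl13 and Ccl24, are not among them. Ccl6 and Ccl9 are neighbouring genes of similar sequence that fell together when bergapten was added to IMQ, and Ccl20 rose with IMQ. Cxcl9 and Cxcl10 did not pass the test over all libraries in any comparison. Each sequence is the 300 bases from 250 before to 50 after the gene's start, 5′ to 3′ on the gene's strand, from RefSeq on GRCm38.p6. In Ccl6 and Ccl9 the capitals mark bases that lie in a run of 10 or more bases found in both promoters. In the other promoters they mark matches to GGNNTTTCC (kappaB, the site letters of NF-kappaB) or TTCNNTTTC (the core of an interferon-stimulated response element), searched on both strands.
Ccl6: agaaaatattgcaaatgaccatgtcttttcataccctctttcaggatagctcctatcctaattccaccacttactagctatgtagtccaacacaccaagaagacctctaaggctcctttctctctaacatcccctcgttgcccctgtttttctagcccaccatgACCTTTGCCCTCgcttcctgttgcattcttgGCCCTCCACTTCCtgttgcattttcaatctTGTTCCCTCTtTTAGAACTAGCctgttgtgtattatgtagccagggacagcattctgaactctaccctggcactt
Ccl9: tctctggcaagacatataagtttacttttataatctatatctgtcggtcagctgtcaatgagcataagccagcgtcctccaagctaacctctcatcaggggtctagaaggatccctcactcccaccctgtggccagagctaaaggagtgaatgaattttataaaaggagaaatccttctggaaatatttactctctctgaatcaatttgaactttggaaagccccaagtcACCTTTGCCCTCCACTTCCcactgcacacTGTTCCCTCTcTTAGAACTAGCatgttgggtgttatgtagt
Ccl20: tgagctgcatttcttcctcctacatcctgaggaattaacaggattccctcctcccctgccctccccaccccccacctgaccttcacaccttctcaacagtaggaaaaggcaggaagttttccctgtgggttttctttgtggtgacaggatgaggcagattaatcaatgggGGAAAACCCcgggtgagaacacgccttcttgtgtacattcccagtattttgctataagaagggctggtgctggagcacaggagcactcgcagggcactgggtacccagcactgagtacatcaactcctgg
Cxcl9: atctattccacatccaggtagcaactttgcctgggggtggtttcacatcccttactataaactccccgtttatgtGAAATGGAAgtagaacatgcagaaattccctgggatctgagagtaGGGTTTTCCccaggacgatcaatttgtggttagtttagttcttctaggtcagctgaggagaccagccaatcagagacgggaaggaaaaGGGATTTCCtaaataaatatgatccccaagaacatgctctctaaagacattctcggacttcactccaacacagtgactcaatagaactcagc
Cxcl10: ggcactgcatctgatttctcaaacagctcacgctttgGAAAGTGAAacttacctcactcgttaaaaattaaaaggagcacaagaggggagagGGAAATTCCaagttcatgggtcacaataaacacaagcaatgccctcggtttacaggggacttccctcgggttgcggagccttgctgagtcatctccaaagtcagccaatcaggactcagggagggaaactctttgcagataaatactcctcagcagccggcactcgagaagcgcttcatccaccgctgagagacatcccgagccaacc

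The Ccl6 sequence lies on chromosome 11 (83593038 to 83593337, minus strand) and the Ccl9 sequence on the same chromosome (83578587 to 83578886, minus strand). The longest run that both hold is 13 bases. In Ccl9 it overlaps a second shared run of 12 bases, and the overlapping runs make 1 stretch of 19 capitals there, while Ccl6 holds them apart. The Ccl20 promoter is on chromosome 1 (83116516 to 83116815, plus strand), the Cxcl9 promoter on chromosome 5 (92328030 to 92328329, minus strand) and the Cxcl10 promoter on chromosome 5 (92348840 to 92349139, minus strand). Promoters were found for 42 of the 57 genes (49 promoters, since some genes have several starts). GGNNTTTCC stood in 6 of the 49 (12.2%), against 5.82% of all 32851 promoters in the RefSeq table. TTCNNTTTC stood in 7 (14.3%, against 8.56%), TTCNNNGAA (STAT) in 4 (8.16%, against 8.3%) and TGANTCA (AP-1) in 10 (20.4%, against 7.81%), none of these matches overlapping another. A match is a match of letters and shows no binding.

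Sequencing gave 42017796 to 53491700 raw reads per library, and 15855439 to 19862905 reads per library were counted to genes. IMQ replicate 2 stood apart on the second principal component, at -71.1 against -18.8 and 3.82 for the other IMQ libraries, and the mean variance of log2 CPM within a group was 0.102 with bergapten, 0.238 with IMQ and 0.1 with vaseline. CPM, the usual depth-scaled count, is a gene's share of the counted reads of a library after scaling between libraries, and is used throughout. Bergapten replicate 2 held 1.79% of its counted reads on the ribosomal RNA gene Rn18s, against 0.179% to 0.27% in the other libraries. Keratinocyte markers, which check the labelled tissue, were detected for 7 of 7 genes, with a summed level of 24440 to 26092 CPM with bergapten, 19471 to 24082 CPM with IMQ and 7097 to 7872 CPM with vaseline. Skeletal muscle markers, of the muscle layer under the skin, summed to 2854 to 3108, 3112 to 4216 and 12084 to 13281 CPM in the same order of groups, and fibroblast markers to 16199 to 21392, 6589 to 14124 and 68027 to 70751 CPM. The collagen genes Col1a1 and Col1a2 made up most of the fibroblast sums (means of 30118 and 33078 CPM with vaseline). Of the 7 fibroblast markers, 6 were lower with IMQ than with vaseline and 1, Pdgfra, was higher (means of 240 and 169 CPM).

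Of the 57 genes, 48 had enough counts to be tested: 29 ligands, 15 receptors and the 4 atypical receptors. Ccl19-ps1, Ccl21b, Ccl21d and Cxcl15 had no count in any library. Ccl26, Ccl27b, Ccr1l1, Cxcl17 and Cxcr5 had 8 to 35 counts over all 9 libraries and were left out of the tests. Ccl21a, Ccl21b and Ccl21d, Ccl27a and Ccl27b, and Ccl19 and Ccl19-ps1 are near-identical copies whose reads the counting could have split, so the values of Ccl21a, Ccl27a and Ccl19 are uncertain in that respect. Whether the counting used strand is not given in the sources used here, and the main overlapping genes are named with the members they touch. Ccl25 overlaps Elavl1, Ccr10 overlaps Cntnap1 and Cxcl16 overlaps Zmynd15, each on the opposite strand, with log2 fold changes of 0.24, 0.01 and 0.30 in IMQ against vaseline skin. Cxcr5 overlaps Bcl9l on the opposite strand (log2 fold change -0.32 in the same comparison), and Ccl19 and Ccl21a overlap 4930578G10Rik on the opposite strand (0.175 to 0.45 CPM).

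The most abundant ligands per transcript length were not the same in the 3 groups. Levels between genes are given as FPKM, fragments per kilobase of transcript scaled to the library's total, as the authors deposited it. Ccl8, in mice a ligand of Ccr8, had the highest mean in vaseline skin. Its mean FPKM was 206 with bergapten (193 to 228 over the libraries), 336 with IMQ (83.8 to 502) and 627 with vaseline (531 to 703). In IMQ skin Cxcl13, the ligand that draws B cells through Cxcr5, stood beside it. The mean FPKM of Cxcl13 was 82.4 with bergapten (26.7 to 117), 350 with IMQ (146 to 708) and 6.96 with vaseline (6.69 to 7.28). The ranges of Ccl8 and Cxcl13 in IMQ skin overlapped, so their order there is not separated by the spread between libraries.

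**Figure D1:**
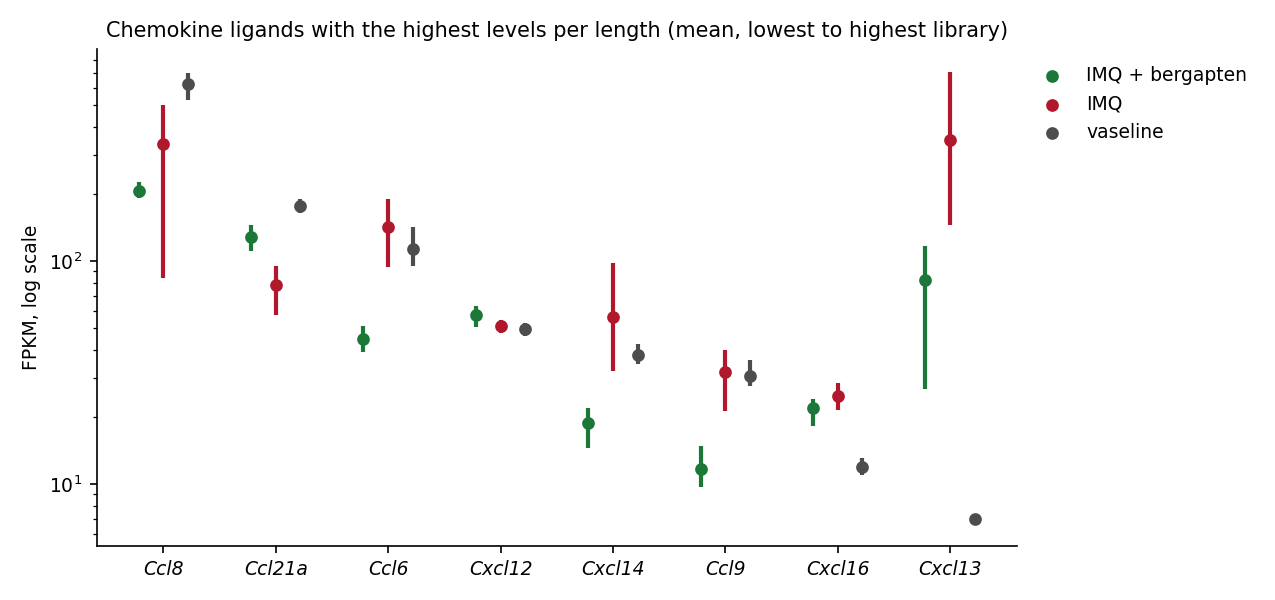
Mean level per transcript length (FPKM, log axis) of the 8 ligands that were among the 6 highest in any group, with bars from the lowest to the highest library (n = 3 per group). Cxcl12 stays between 49.5 and 57.5 FPKM, while Cxcl13 runs from 6.96 FPKM in vaseline skin to 350 FPKM in IMQ skin.

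Ccl21a, the ligand by which lymphatic vessels guide Ccr7-bearing cells, had 129, 78.6 and 177 FPKM in bergapten, IMQ and vaseline skin. Ccl6, a mouse ligand of Ccr1 made by myeloid cells, had 44.8, 142 and 113 FPKM in the same order of groups, above Ccl21a in the mean of IMQ skin and below it in the other groups. Cxcl12, the ligand of Cxcr4 and Ackr3, had 57.5 FPKM (50.7 to 62.9) with bergapten, 51.5 (47.8 to 54.5) with IMQ and 49.5 (46 to 52.8) with vaseline, with overlapping ranges. Among receptors the highest FPKM were those of Ccr2 with bergapten (22), of Cxcr6 with IMQ (20.4) and of the atypical Ackr3 with vaseline (36.1). For 34 of 52 genes the length implied by the FPKM values differed by more than 5% from the length listed in the table, which limits the order between genes of close level.

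IMQ against vaseline asks how the challenge moved these genes. Of the 48 tested, 10 rose (5 ligands and 5 receptors), against a background of 23.0% of all 18005 genes tested, and 12 fell (5 ligands, 4 receptors and 3 atypical receptors), against a background of 20.2%. Their median log2 fold change, the log2 of the ratio of groups, was -0.46, against 0.03 over all genes tested. The ligands that rose were Cxcl13, Ccl20, Ccl3, Ccl4 and Cxcl16, and the receptors included Cxcr6, Cxcr4, Ccr9 and Ccr7. Those that fell were the ligands Ccl24, Xcl1, Ccl21a, Ccl11 and Cx3cl1, the receptors Ccr3, Ccr4, Xcr1 and Ccr8, and Ackr2, Ackr3 and Ackr4. A gene is said to rise or fall where its p-value in edgeR's quasi-likelihood test, with Benjamini-Hochberg adjustment across the whole set of tested genes, was under 0.05. In bulk tissue, fewer cells of a type and less RNA per cell cannot be told apart.

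**Figure D2:**
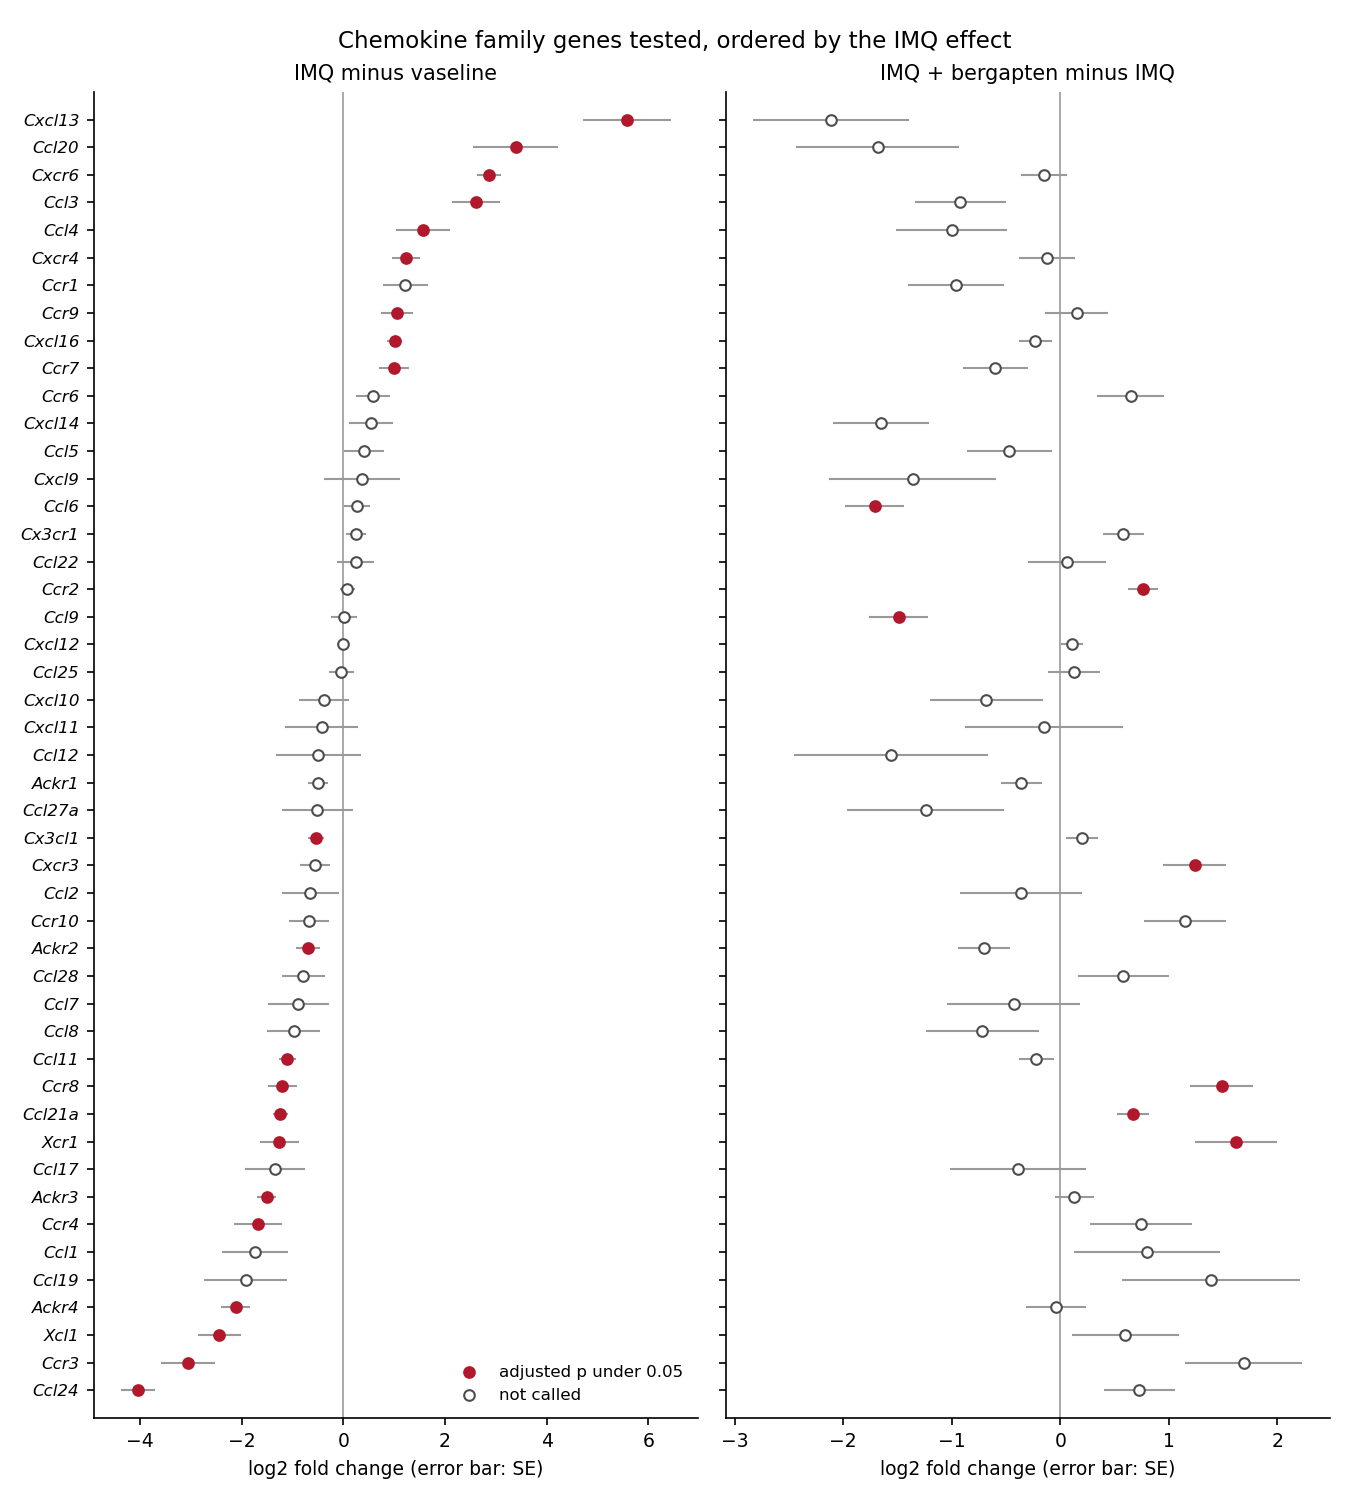
Log2 fold changes with their standard errors (SE) for 47 of the 48 tested genes, ordered from the highest to the lowest value of IMQ minus vaseline (left panel), with IMQ and bergapten minus IMQ beside them (right panel, other scale). Filled points passed the adjusted p: 21 on the left, from -4.04 (Ccl24) to 5.58 (Cxcl13), and 7 on the right.

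Cxcl13 (ENSMUSG00000023078, GRCm39 chromosome 5, 96104810 to 96108927, plus strand) rose most. It had 29, 133 and 115 CPM with bergapten, 799, 176 and 219 CPM with IMQ, and 8.61, 8.37 and 7.97 CPM with vaseline. All IMQ libraries lay far above all vaseline libraries, and IMQ replicate 1 lay far above the other IMQ libraries. The log2 fold change was 5.58 (SE 0.86, adjusted p = 0.00154), and 4.54 without IMQ replicate 1. Its receptor Cxcr5, carried by B cells and follicular helper T cells, had 1 to 6 counts per library with bergapten, 1 to 10 with IMQ and 1 to 4 with vaseline, too few to test. B cell markers were detected for 6 of 6 genes with a summed level of 127 to 148 CPM with bergapten, 56.8 to 65.7 with IMQ and 61.2 to 79.3 with vaseline.

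Ccl20 (ENSMUSG00000026166, chromosome 1, 83094487 to 83096888, plus strand), the keratinocyte ligand of Ccr6, had 2.81, 5.67 and 2.35 CPM with bergapten, 7.28, 25 and 2.59 CPM with IMQ, and 1.54, 0.85 and 0.892 CPM with vaseline. All IMQ libraries were above all vaseline libraries, but they differed several-fold among themselves. The log2 fold change was 3.39 (SE 0.84, adjusted p = 0.0124), 2.16 without IMQ replicate 2, and its adjusted p was 0.0509 with no filter on low counts, in a range of 0.000236 to 0.0509 over the alternatives. Ccr6 itself, carried by interleukin-17-producing T cells, B cells and some dendritic cells, did not pass here: it had 3.35, 5.12 and 3.31 CPM with bergapten, 1.77, 3.13 and 2.64 CPM with IMQ, and 2.14, 1.77 and 1.13 CPM with vaseline (IMQ against vaseline, adjusted p = 0.186).

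Ccl3 and Ccl4, inflammatory ligands that sit side by side on chromosome 11, both rose. Ccl3, which also binds Ccr1, had 3.76, 4.03 and 1.33 CPM with bergapten, 5.82, 5.77 and 5.64 CPM with IMQ, and 0.548, 0.654 and 1.6 CPM with vaseline. The IMQ libraries were almost alike and above every other library. The log2 fold change of Ccl3 was 2.61 (SE 0.48, adjusted p = 0.0016), and 3.22 without vaseline replicate 3. Ccl4 had 2.81, 1.69 and 1.38 CPM with bergapten, 3.22, 2.21 and 6.25 CPM with IMQ, and 0.932, 0.654 and 2.32 CPM with vaseline, and its IMQ and vaseline libraries overlapped. Its log2 fold change was 1.57 (SE 0.53, adjusted p = 0.036), and 2.25 without vaseline replicate 3. The adjusted p of Ccl4 ran from 0.0121 to 0.134 over the alternatives and was above 0.05 with only the 6 libraries compared (0.0675) and without any of bergapten replicates 2 and 3, IMQ replicates 1 and 3 and vaseline replicates 1 and 2 (0.0504 to 0.134).

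Cxcl16, a ligand that keratinocytes and myeloid cells hold on their membrane, and Cxcr6, its receptor on tissue T cells, rose together. Cxcl16 (ENSMUSG00000018920, chromosome 11, 70344809 to 70350810, minus strand) had 46.7, 64.1 and 61.5 CPM with bergapten, 57.2, 80.3 and 64.3 CPM with IMQ, and 32.2, 31.2 and 36.7 CPM with vaseline (1.01, SE 0.15, adjusted p = 0.000525). Cxcr6 (ENSMUSG00000048521, chromosome 9, 123635540 to 123640825, plus strand) had 31.2, 33.8 and 39.3 CPM with bergapten, 32.4, 29.1 and 54.6 CPM with IMQ, and 5.15, 5.16 and 5.59 CPM with vaseline (2.87, SE 0.24, adjusted p = 1.49e-05). For both genes the vaseline libraries lay in a narrow band below all others. Cxcr6 lies within Fyco1 on the opposite strand, whose log2 fold change was -0.85. T cell markers, of which 6 of 10 rose and 1 fell, summed to 85.1 to 106 CPM with bergapten, 64.6 to 86.1 with IMQ and 37.2 to 45 with vaseline, and their part in the receptor values was not tested.

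**Figure D3:**
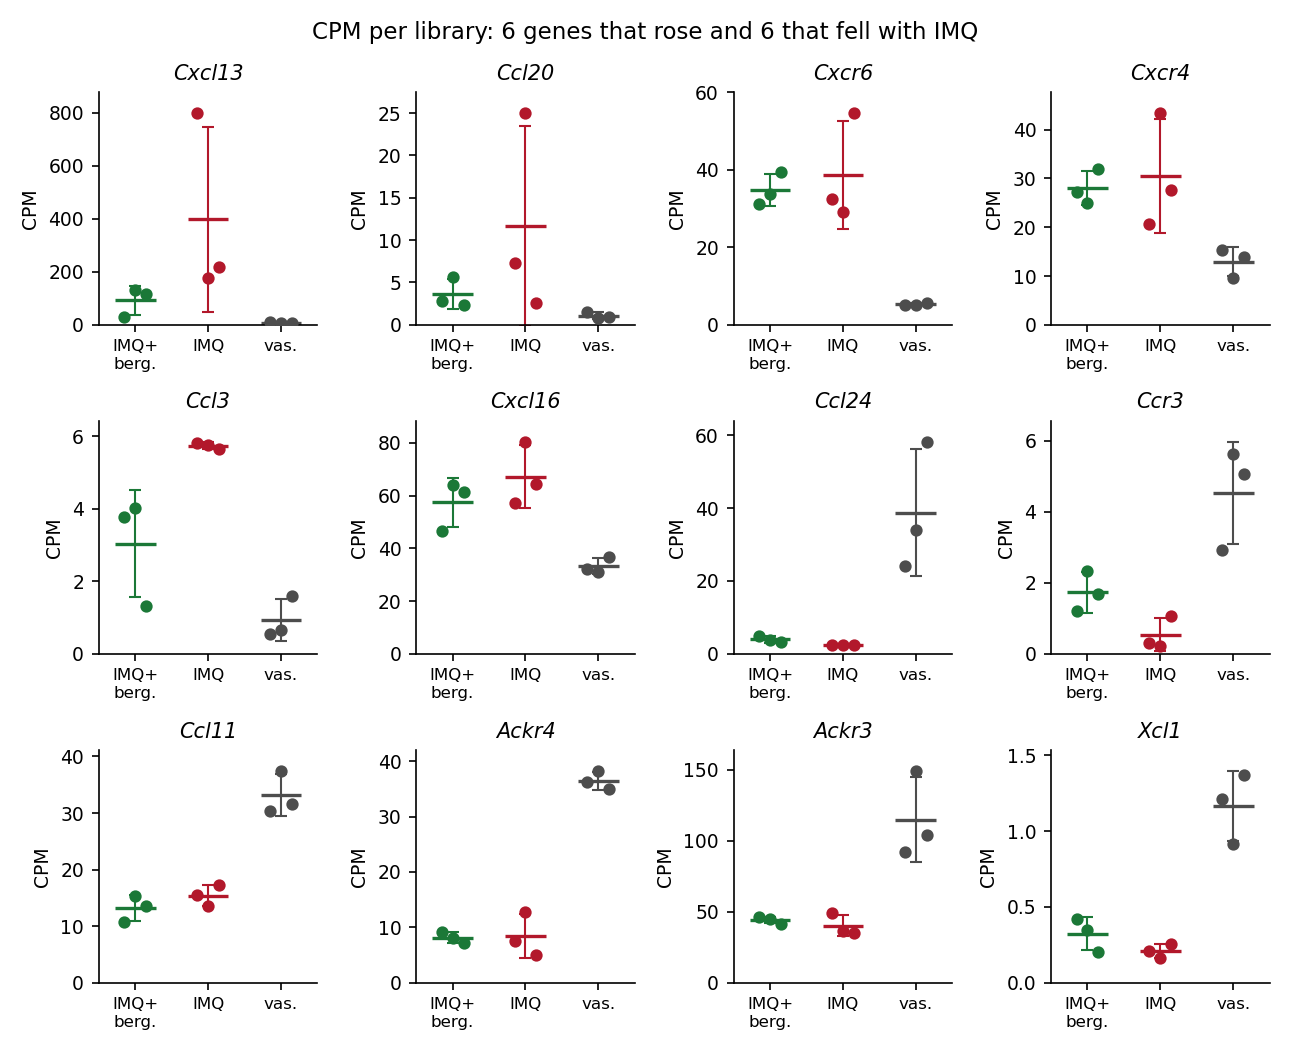
CPM in each library for 6 genes that rose and 6 that fell in IMQ against vaseline skin, with bergapten skin at the left of each panel; the horizontal line is the mean and the bar the SD (n = 3), and every panel starts at 0, where the SD bar of Ccl20 in IMQ skin is cut. Cxcr6 and Cxcr4 stand at like levels with bergapten and with IMQ, and Ccl24, Ccl11, Ackr3 and Ackr4 stay low in both.

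Cxcr4, the receptor of Cxcl12 on most leukocytes, had 27.2, 25 and 31.9 CPM with bergapten, 20.6, 43.4 and 27.6 CPM with IMQ, and 15.4, 9.61 and 13.9 CPM with vaseline (1.23, SE 0.27, adjusted p = 0.00563). Every challenged library was above every vaseline library for Cxcr4. Cxcl12 did not follow it, with 270, 327 and 343 CPM with bergapten, 288, 282 and 297 CPM with IMQ, and 266, 293 and 308 CPM with vaseline (adjusted p = 0.993). Its libraries overlapped in all 3 groups. Neutrophil markers, of which 8 of 9 rose, summed to 2802 to 6760 CPM with bergapten, 3883 to 9681 with IMQ and 35.8 to 47.4 with vaseline. S100a8 and S100a9 made up most of that sum in challenged skin. Their means with IMQ were 2380 and 4624 CPM, against 78.9 for Csf3r and 45.8 for Cxcr2. Markers of monocytes and macrophages, of which 4 of 9 rose, summed to 3169 to 3722 CPM with bergapten, 2414 to 3583 with IMQ and 2054 to 2347 with vaseline. The part of neutrophils, monocytes and macrophages in Cxcr4 was not tested.

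Ccr7, which takes dendritic and naive T cells to lymph nodes, and Ccr9, known best for homing to the gut, also rose. Ccr7 had 3.58, 4.13 and 7.9 CPM with bergapten, 6.44, 7.92 and 9.4 CPM with IMQ, and 3.34, 3.92 and 4.58 CPM with vaseline (1.00, SE 0.30, adjusted p = 0.0218). Ccr9 had 3.23, 4.77 and 3.01 CPM with bergapten, 3.48, 3.72 and 2.74 CPM with IMQ, and 1.1, 2.16 and 1.55 CPM with vaseline (1.06, SE 0.31, adjusted p = 0.0181). In both, IMQ and vaseline libraries did not overlap. Over the alternatives the adjusted p of Ccr7 ran from 0.00698 to 0.0872, above 0.05 without IMQ replicate 3 (0.0666) or vaseline replicates 1 (0.0872) and 2 (0.0707), and that of Ccr9 from 0.00798 to 0.0773, above 0.05 without vaseline replicates 1 (0.0773) and 3 (0.063). Ccr9 overlaps Slc6a20a on the opposite strand, whose log2 fold change was 1.83, and Lztfl1 and Gm10052 on the opposite strand, with -0.27 and -0.04. Ccl25, the ligand of Ccr9, had means of 3.73 ± 0.963, 3.4 ± 0.472 and 3.49 ± 0.454 CPM in bergapten, IMQ and vaseline skin (SD, n = 3 each; adjusted p = 0.914).

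The eotaxins tested, Ccl24 and Ccl11, and their receptor fell. Ccl24 (ENSMUSG00000004814, chromosome 5, 135598791 to 135601903, minus strand), an eosinophil attractant, had 4.84, 3.78 and 3.16 CPM with bergapten, 2.29, 2.37 and 2.39 CPM with IMQ, and 24.1, 34.1 and 58.1 CPM with vaseline (-4.04, SE 0.33, adjusted p = 1.68e-05). Ccl11, also an eotaxin, had 10.7, 15.3 and 13.6 CPM with bergapten, 15.5, 13.5 and 17.2 CPM with IMQ, and 30.4, 37.4 and 31.6 CPM with vaseline (-1.10, SE 0.16, adjusted p = 0.000321). Ccr3, the eotaxin receptor of eosinophils, had 1.19, 2.34 and 1.68 CPM with bergapten, 0.312, 0.216 and 1.07 CPM with IMQ, and 2.91, 5.62 and 5.05 CPM with vaseline (-3.06, SE 0.53, adjusted p = 0.00117). For all of them each vaseline library was above each challenged library. The log2 fold change of Ccr3 was -4.09 without IMQ replicate 3, its highest IMQ library.

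Xcl1, by which T and NK cells call cross-presenting dendritic cells, and Xcr1, its receptor on those cells, both fell. Xcl1 had 0.418, 0.348 and 0.204 CPM with bergapten, 0.208, 0.162 and 0.254 CPM with IMQ, and 1.21, 0.915 and 1.37 CPM with vaseline (-2.44, SE 0.43, adjusted p = 0.00126). Its counts were low, 3 to 5 per IMQ library and 14 to 23 per vaseline library, and Xcl1 overlaps Gm20743 on the opposite strand, which had a log2 fold change of -3.17. Xcr1 had 12.3, 9.1 and 11.2 CPM with bergapten, 2.96, 1.56 and 6 CPM with IMQ, and 8.11, 9.54 and 7.73 CPM with vaseline, with no overlap of IMQ with the other groups. The log2 fold change of Xcr1 was -1.26 (SE 0.38, adjusted p = 0.0236), and -1.92 without IMQ replicate 3. Over the alternatives its adjusted p ran from 0.000513 to 0.0694, above 0.05 with only the 6 libraries compared (0.0544) and without IMQ replicate 1 (0.0694) or vaseline replicate 2 (0.0686). Dendritic and Langerhans cell markers, of which 1 of 11 rose and 5 fell, summed to 1569 to 2065 CPM with bergapten, 802 to 1104 with IMQ and 1899 to 2073 with vaseline, and NK cell markers, none of 4 tested called, to 10.9 to 18.5, 14.3 to 27.6 and 16.1 to 23.1 CPM in the same order of groups. The dendritic and Langerhans cell markers that fell were Cd74, H2-Aa, H2-Ab1, Cd207 and Cd209a. Cd74, H2-Aa and H2-Ab1 made up most of that sum (means of 1098, 333 and 312 CPM with vaseline, 435, 156 and 139 with IMQ). Clec9a (-0.24, adjusted p = 0.53) and Batf3 (0.30, adjusted p = 0.45) were among those that did not pass. The part of dendritic and NK cells in Xcr1 and Xcl1 was not tested.

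Ccr4 and Ccr8, receptors of T cells in skin, fell. Ccr4, the receptor of Ccl17 and Ccl22, had 1.79, 2.24 and 2.86 CPM with bergapten, 0.416, 1.51 and 2.18 CPM with IMQ, and 4.28, 3.33 and 5.65 CPM with vaseline (-1.68, SE 0.47, adjusted p = 0.0147). Without vaseline replicate 3 its adjusted p was 0.0548, in a range of 0.00188 to 0.0548. Ccr8, on skin-resident and regulatory T cells, had 2.81, 2.58 and 1.68 CPM with bergapten, 0.78, 0.916 and 0.813 CPM with IMQ, and 1.64, 2.03 and 2.14 CPM with vaseline (-1.20, SE 0.29, adjusted p = 0.00793). For both receptors the IMQ libraries lay below all vaseline libraries. Regulatory T cell markers, of which 1 of 5 rose and 2 fell, summed to 34.3 to 42.5 CPM with bergapten, 31 to 47.5 with IMQ and 44 to 58.8 with vaseline, and their part was not tested. Ccl22 had 7.83, 16.1 and 14.3 CPM with bergapten, 6.55, 12.5 and 17.7 CPM with IMQ, and 9.21, 11.4 and 10.6 CPM with vaseline (adjusted p = 0.626). Ccl17, made by dendritic cells and keratinocytes, had 0.657, 0.298 and 1.02 CPM with bergapten, 0.624, 1.67 and 0.305 CPM with IMQ, and 2.85, 1.44 and 2.32 CPM with vaseline. IMQ replicate 2 alone overlapped the vaseline libraries for Ccl17, whose adjusted p was 0.0874 over all libraries and 0.00762 without that library (log2 fold change -2.24), in a range of 0.00762 to 0.219.

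Ccl21a and Cx3cl1, ligands of vessel and stromal cells, also fell. Ccl21a (ENSMUSG00000094686, chromosome 4, 42772860 to 42773993, minus strand) had 120, 110 and 93.6 CPM with bergapten, 70.7, 52.4 and 80.6 CPM with IMQ, and 170, 151 and 160 CPM with vaseline. The 3 groups did not overlap, and the bergapten libraries stood between the others (IMQ against vaseline, -1.24, SE 0.15, adjusted p = 0.000144). Lymphatic endothelium markers, none of 5 called here, summed to 139 to 149 CPM with bergapten, 186 to 242 with IMQ and 179 to 197 with vaseline. Cx3cl1, the membrane-bound ligand of Cx3cr1, had 12.6, 12.8 and 11.9 CPM with bergapten, 12.9, 9 and 10.7 CPM with IMQ, and 14, 16.3 and 17.1 CPM with vaseline (-0.54, SE 0.15, adjusted p = 0.0163, and 0.0537 without vaseline replicate 3, in a range of 0.00563 to 0.0537). Its IMQ libraries were all below its vaseline libraries.

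Of the atypical receptors, 3 of 4 fell. Ackr4, which removes Ccl19, Ccl21 and Ccl25, had 9.2, 8.1 and 7.19 CPM with bergapten, 7.59, 12.7 and 4.93 CPM with IMQ, and 36.2, 38.2 and 34.9 CPM with vaseline (-2.12, SE 0.28, adjusted p = 0.000289). Ackr3, the Cxcl12 scavenger, had 46.2, 44.8 and 41.5 CPM with bergapten, 49.1, 36.5 and 35.3 CPM with IMQ, and 91.8, 149 and 104 CPM with vaseline (-1.51, SE 0.19, adjusted p = 0.000182). Both stood at like levels in the challenged groups and higher in every vaseline library. Ackr2, which clears inflammatory CC chemokines, had 9.5, 7.85 and 6.27 CPM with bergapten, 11.5, 17.1 and 9.7 CPM with IMQ, and 18.9, 25.3 and 18.2 CPM with vaseline (-0.70, SE 0.23, adjusted p = 0.0338). Its 3 groups did not overlap, and the bergapten libraries were the lowest. The adjusted p of Ackr2 ran from 0.00304 to 0.115 over the alternatives, above 0.05 without IMQ replicate 1 (0.0805), IMQ replicate 3 (0.0777) or vaseline replicate 2 (0.115). Ackr1, which venules use to hold chemokines, had 11.1, 11.8 and 11.2 CPM with bergapten, 18.2, 12.3 and 13.1 CPM with IMQ, and 16.8, 25.3 and 19.9 CPM with vaseline. IMQ replicate 1 alone reached into the vaseline range for Ackr1 (adjusted p = 0.0502, and 0.0097 to 0.165 over the alternatives, under 0.05 without IMQ replicate 1 (0.0097) or vaseline replicate 1 (0.025), with RLE size factors, no filter or DESeq2). Ackr1 overlaps Cadm3 on the same strand and Ackr4 overlaps Acad11 on the opposite strand, with log2 fold changes of -2.21 and -0.15. Blood endothelium markers, of which 4 of 7 rose, summed to 449 to 511 CPM with bergapten, 562 to 704 with IMQ and 393 to 448 with vaseline. Of the fibroblast markers, 6 of 7 fell and 1 rose with IMQ. They summed to 16199 to 21392, 6589 to 14124 and 68027 to 70751 CPM in the same order of groups. The part of these cell types in the atypical receptors was not tested.

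Among the 26 genes that did not pass, several had 1 or 2 libraries far from the rest. Ccl27a, the keratinocyte ligand of Ccr10, had 10.9, 9.49 and 7.55 CPM with bergapten, 9.87, 50.7 and 5.44 CPM with IMQ, and 33.7, 29.2 and 30.7 CPM with vaseline. IMQ replicate 2 was the highest of all 9 libraries and the other IMQ libraries were below every vaseline library. For Ccl27a the adjusted p was 0.596, and 9.39e-05 with a log2 fold change of -2.02 without IMQ replicate 2, in a range of 9.39e-05 to 0.934. Ccl27a overlaps Il11ra1 on the opposite strand, whose log2 fold change was -0.68. Ccl8 had 93.4, 115 and 97.8 CPM with bergapten, 252, 44.9 and 209 CPM with IMQ, and 369, 348 and 281 CPM with vaseline. IMQ replicate 2 was here the lowest library, and the adjusted p of Ccl8 was 0.164, and 0.0101 without it, in a range of 0.0101 to 0.338. Ccr1, the receptor of Ccl3, Ccl6 and Ccl9 on myeloid cells, had 12.7, 19.3 and 19.4 CPM with bergapten, 41.8, 18.4 and 40.1 CPM with IMQ, and 6.85, 22.2 and 14.1 CPM with vaseline. Its adjusted p was 0.0575, and 0.027 without IMQ replicate 2, 0.0262 without vaseline replicate 2 and 0.00755 with DESeq2, in a range of 0.00755 to 0.17.

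The ligands of Ccr2 on monocytes did not pass in IMQ skin either. Ccl2 had 5.79, 7.95 and 6.22 CPM with bergapten, 13, 4.04 and 8.64 CPM with IMQ, and 4.99, 12.2 and 23.3 CPM with vaseline (adjusted p = 0.381). Ccl7 had 8, 9.54 and 9.53 CPM with bergapten, 14, 6.74 and 15.6 CPM with IMQ, and 6.14, 20.3 and 41.3 CPM with vaseline (adjusted p = 0.266, and 0.026 without vaseline replicate 1, in a range of 0.026 to 0.85). Ccl12 had 2.93, 2.98 and 1.89 CPM with bergapten, 5.25, 1.24 and 16.5 CPM with IMQ, and 3.4, 12.8 and 16.2 CPM with vaseline (adjusted p = 0.668). For these monocyte attractants the vaseline libraries themselves spread several-fold, with vaseline replicate 1 always the lowest of its group, and every group overlapped in this comparison.

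The interferon-inducible ligands of Cxcr3 also did not pass. Cxcl9, whose promoter holds 2 kappaB matches (at -130 and -42 from the start) and 1 interferon element match (at -175), had 12.8, 7.65 and 8.21 CPM with bergapten, 51.3, 3.4 and 18.8 CPM with IMQ, and 19.8, 14 and 23.4 CPM with vaseline (IMQ against vaseline, adjusted p = 0.726). Cxcl10, with 1 match of each (at -158 and -213), had 3.52, 1.39 and 2.4 CPM with bergapten, 4.47, 1.24 and 5.89 CPM with IMQ, and 5.37, 3.79 and 5.94 CPM with vaseline (adjusted p = 0.575). Cxcl11 had 0.538, 0.547 and 0.867 CPM with bergapten, 1.51, 0.0539 and 0.61 CPM with IMQ, and 1.1, 0.654 and 1.19 CPM with vaseline (adjusted p = 0.652). IMQ replicate 2 was the lowest library for all of these ligands. Ccl20, whose promoter has 1 kappaB match (at -80) and no interferon element match, was the ligand of these promoters that rose. The Ccl9 promoter also has a kappaB match (at -35) and no interferon element match, and Ccl9 did not pass (0.01, adjusted p = 0.986). Ackr4 and Ccr3, which fell, had kappaB matches too (at -230 and -179). Of the 7 genes with an interferon element match, only Ccl3 (at -39) rose and none fell, against backgrounds of 23.0% and 20.2%. So few genes cannot be told apart from those shares, and no link of a match to a change was tested. Cxcl10 and Cxcl11 lie within Art3 on the opposite strand, whose log2 fold change was -0.65.

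Among the remaining ligands that did not pass, Ccl5, a ligand of Ccr1 and Ccr3 made by activated T cells, had 7.83, 2.83 and 5.91 CPM with bergapten, 10.9, 7.06 and 4.98 CPM with IMQ, and 7.13, 4.38 and 5.77 CPM with vaseline (adjusted p = 0.431). Ccl19, the other ligand of Ccr7, had 1.19, 3.03 and 0.663 CPM with bergapten, 0.728, 0 and 1.12 CPM with IMQ, and 2.25, 2.35 and 2.5 CPM with vaseline (adjusted p = 0.0862, and 0.0414 with DESeq2, in a range of 0.0414 to 0.21). Its IMQ libraries were all below its vaseline libraries, and IMQ replicate 2 had no count. Ccl1, the ligand of Ccr8, had 1.25, 1.04 and 0.561 CPM with bergapten, 1.09, 0.431 and 0.102 CPM with IMQ, and 1.97, 0.981 and 2.5 CPM with vaseline. Its adjusted p was 0.0515, in a range of 0.00957 to 0.157, under 0.05 without IMQ replicate 1 (0.00957, log2 fold change -2.79) or vaseline replicate 2 (0.0445), with RLE size factors (0.049), no filter (0.0403) or DESeq2 (0.0309). Ccl28, an epithelial ligand of Ccr10, had 1.31, 1.49 and 1.27 CPM with bergapten, 1.14, 1.08 and 0.508 CPM with IMQ, and 1.75, 2.16 and 0.832 CPM with vaseline (adjusted p = 0.155). Ccr10, carried by skin-homing T cells and plasma cells, had 1.91, 1.54 and 1.78 CPM with bergapten, 0.987, 0.431 and 0.915 CPM with IMQ, and 0.932, 1.11 and 1.72 CPM with vaseline (adjusted p = 0.182).

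IMQ with bergapten against IMQ asks what the gel changed in challenged skin. The myeloid ligands Ccl6 and Ccl9 were lower, and the ligand Ccl21a and the receptors Ccr2, Ccr8, Cxcr3 and Xcr1 were higher. These were 5 genes that rose, against a background of 2.18% of all genes tested, and 2 that fell, against a background of 2.65%. The median over the 48 genes was -0.14, against -0.00 over all genes tested. None of these 7 calls held in every alternative: the counts of higher and lower genes were 0 and 0 without bergapten replicate 1, 0 and 2 without bergapten replicate 2, 1 and 0 without bergapten replicate 3, 2 and 2 without any 1 vaseline library, and 4 and 3 without IMQ replicate 2.

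**Figure D4:**
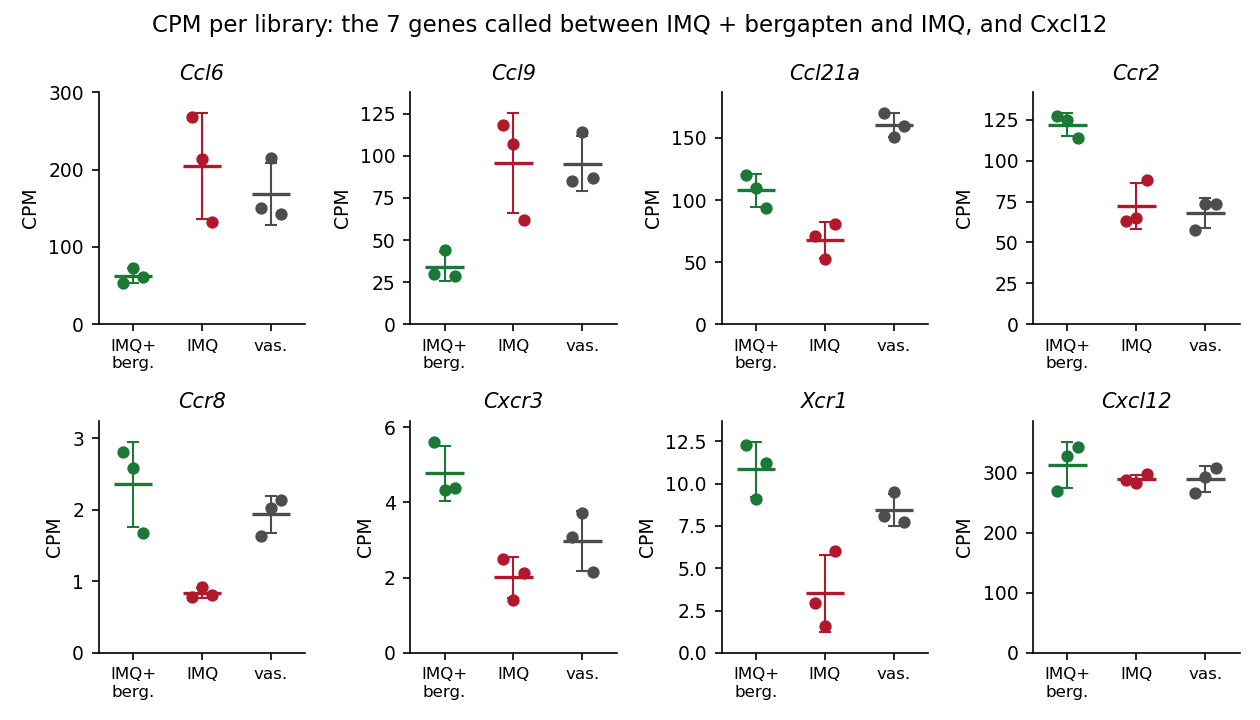
CPM in each library for the 7 genes that changed between bergapten and IMQ skin, with Cxcl12, which passed in no comparison, as the last panel; the horizontal line is the mean and the bar the SD (n = 3), and every panel starts at 0. In each of the 7 genes the bergapten libraries lie outside the range of the IMQ libraries. These genes were chosen by the test on the same libraries, so the lack of overlap is no further support. It was also seen in genes that did not pass, such as Cxcl13, Ccl3 and Cxcl14.

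Ccl6 (ENSMUSG00000018927, GRCm39 chromosome 11, 83478708 to 83483913, minus strand) and Ccl9 (ENSMUSG00000019122, chromosome 11, 83463745 to 83469462, minus strand), mouse ligands of Ccr1, lie 9.24 kb apart. Ccl6 had 53.4, 72.8 and 61.5 CPM with bergapten, 268, 214 and 132 CPM with IMQ, and 150, 215 and 142 CPM with vaseline. Ccl9 had 30, 44.1 and 28.4 CPM with bergapten, 118, 107 and 62.1 CPM with IMQ, and 85, 114 and 86.7 CPM with vaseline. Both were lower in every bergapten library than in any other library, and for both IMQ overlapped vaseline. The log2 fold change against IMQ was -1.71 for Ccl6 (SE 0.27, adjusted p = 0.0154) and -1.49 for Ccl9 (SE 0.27, adjusted p = 0.0228). For Ccl6 the adjusted p was 0.0771 without bergapten replicate 1 and 0.0723 without bergapten replicate 3, in a range of 4.73e-09 to 0.0771. That of Ccl9 ran from 8.06e-07 to 0.101, above 0.05 without bergapten replicates 1 (0.101) and 3 (0.0953) or IMQ replicate 2 (0.0662), with no filter (0.0641) and with only the 6 libraries compared (0.0643). Of the monocyte and macrophage markers, none of 9 rose and 1 fell here, and of the neutrophil markers none of 9 rose and 2 fell (Retnlg, -3.64, and Clec4d, -1.77). Their part in Ccl6 and Ccl9 was not tested.

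Ccr2, the receptor by which monocytes leave the blood (ENSMUSG00000049103, chromosome 9, 123901987 to 123913594, plus strand), had 127, 125 and 114 CPM with bergapten, 62.8, 65.1 and 88.3 CPM with IMQ, and 57.5, 73.2 and 73.4 CPM with vaseline. The bergapten libraries were above all others, and IMQ overlapped vaseline (bergapten against IMQ, 0.76, SE 0.14, adjusted p = 0.0194). Its ligands Ccl2, Ccl7 and Ccl12 did not pass between bergapten and IMQ (adjusted p = 0.755, 0.726 and 0.345). Over the alternatives the adjusted p of Ccr2 ran from 0.000228 to 0.0885, above 0.05 without each bergapten replicate in turn (0.0626 to 0.0885) and with only the 6 libraries compared (0.0643).

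Xcr1 and Ccr8, which fell with IMQ, were higher with bergapten than with IMQ alone. Both comparisons use the same IMQ libraries, so low values there lower the first and raise the second, and the comparisons are not independent. The same applies to Ccl21a. For Xcr1 (ENSMUSG00000060509, chromosome 9, 123681380 to 123691094, minus strand) the lowest bergapten library, at 9.1 CPM, stood above the highest IMQ library, at 6 CPM (1.62, SE 0.38, adjusted p = 0.0442; 2.25 without IMQ replicate 3). For Ccr8 (ENSMUSG00000042262, chromosome 9, 119921180 to 119923972, plus strand) the lowest bergapten library had 1.68 CPM and the highest IMQ library 0.916 CPM (1.49, SE 0.29, adjusted p = 0.0235). Bergapten and vaseline libraries overlapped for both. The adjusted p of Xcr1 ran from 0.000617 to 0.145, above 0.05, among others, with no filter (0.0656), with only the 6 libraries compared (0.127), and without each bergapten replicate, IMQ replicate 1 or each vaseline replicate (0.0769 to 0.145). That of Ccr8 ran from 0.00221 to 0.0992, above 0.05, among others, without bergapten replicates 1 (0.0992) and 2 (0.0771) and with only the 6 libraries compared (0.0772). Of the dendritic and Langerhans cell markers 4 of 11 rose (Itgax, Cd74, H2-Aa and H2-Ab1) and none fell in this comparison. Clec9a (0.40, adjusted p = 0.434) and Batf3 (1.15, adjusted p = 0.0527) were among those that did not pass. The part of these cells in Xcr1 was not tested.

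Cxcr3, the receptor of Cxcl9, Cxcl10 and Cxcl11 on effector T cells (ENSMUSG00000050232, chromosome X, 100775141 to 100777875, minus strand), had 5.62, 4.32 and 4.38 CPM with bergapten, 2.49, 1.4 and 2.13 CPM with IMQ, and 3.07, 3.73 and 2.14 CPM with vaseline. Its bergapten libraries were above all others (bergapten against IMQ, 1.24, SE 0.29, adjusted p = 0.0384). Ccl21a, with the values given above, was higher with bergapten than with IMQ by 0.67 (SE 0.15, adjusted p = 0.0371). Over the alternatives the adjusted p ran from 0.00217 to 0.141 for Cxcr3 and from 0.00229 to 0.141 for Ccl21a. Both were above 0.05, among others, with only the 6 libraries compared (0.0885 and 0.113), without each bergapten replicate (0.0891 to 0.141 for Cxcr3, 0.0702 to 0.141 for Ccl21a) and without each vaseline replicate (0.0505 to 0.0666, and 0.0658 to 0.0707). The same held without IMQ replicate 2 for Cxcr3 (0.0632) and without IMQ replicate 1 for Ccl21a (0.0639). Of the T cell markers 1 of 10 rose and none fell here, and of the lymphatic endothelium markers none of 5 rose and 1 fell. Their part in Cxcr3 and Ccl21a was not tested.

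The genes that IMQ raised did not pass between bergapten and IMQ. Cxcl13 had an adjusted p of 0.147 (0.0382 with DESeq2, in a range of 0.0382 to 0.319), although its highest bergapten library, at 133 CPM, was below its lowest IMQ library, at 176 CPM. Ccl3, with the same lack of overlap, had an adjusted p of 0.235, Ccl4 of 0.279 and Ccl20 of 0.234. For Cxcr6, Cxcr4, Ccr9 and Cxcl16 the bergapten and IMQ libraries overlapped, with adjusted p of 0.714, 0.829, 0.805 and 0.411. A p above the threshold does not show that the levels were alike: the SE of the log2 fold change was 0.72 for Cxcl13, 0.21 for Cxcr6 and 0.15 for Cxcl16.

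Further genes did not pass over all libraries but did in 1 or 2 alternatives. Cxcl14, a ligand that healthy epidermis makes, had 34.7, 26.1 and 39 CPM with bergapten, 57.7, 189 and 66.1 CPM with IMQ, and 65, 82 and 68.1 CPM with vaseline. Every bergapten library was below every other library, and IMQ replicate 2 was far above the rest. Against IMQ its adjusted p was 0.0778, and 0.0162 without IMQ replicate 2 and 0.0103 with DESeq2, in a range of 0.0103 to 0.203. Ccr3 had an adjusted p of 0.103 here, and 0.0118 without IMQ replicate 3, with a log2 fold change of 2.69, and 0.0265 with DESeq2 (range 0.0118 to 0.264). Ccl8 had 0.453, and 0.00185 without IMQ replicate 2 (range 0.00185 to 0.787), and Ackr2 had 0.123, and 0.0462 without IMQ replicate 3 (range 0.0462 to 0.318). Cx3cr1, the Cx3cl1 receptor of monocytes and Langerhans cell precursors, had 10.9, 12.6 and 11.8 CPM with bergapten, 9.77, 7.33 and 6.4 CPM with IMQ, and 5.59, 7.26 and 6.9 CPM with vaseline, all bergapten libraries being the highest. Its adjusted p against IMQ was 0.103, and 0.0476 without IMQ replicate 1 and 0.0464 with DESeq2, in a range of 0.0464 to 0.254. Cx3cr1 spans several other genes in the table, among them Csrnp1, Gorasp1 and Xirp1 on the same strand and Wdr48 on the opposite strand.

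IMQ with bergapten against vaseline asks how far skin with both agents stood from control skin. It shares libraries with both comparisons above and is no independent test of them. More ligands fell than rose, and more receptors rose than fell: of 29 tested ligands 3 rose and 8 fell, of 15 receptors 7 rose and 1 fell, and all 4 atypical receptors fell. In all, 10 genes rose, against a background of 20.9%, and 13 fell, against a background of 19.5%. Their median was -0.43, against 0.01 over all genes tested.

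Of the genes that rose with IMQ, 7 were also higher with bergapten than with vaseline, among them Cxcl13 (3.47, SE 0.79, adjusted p = 0.0104), Cxcr6 (2.71, SE 0.24, adjusted p = 2.49e-05), Ccl3, Ccr9, Cxcr4 and Cxcl16 (0.78 to 1.69). Ccl20 (adjusted p = 0.146), Ccl4 (adjusted p = 0.434) and Ccr7 (adjusted p = 0.325) were not. Ccl20 stood above vaseline in every bergapten library, and its adjusted p was 0.0198 without IMQ replicate 2 and 0.00351 with only the 6 libraries compared, in a range of 0.00351 to 0.376. The call of Ccl3 (adjusted p = 0.0182), whose groups overlapped, was lost without bergapten replicates 1 (0.0637) and 2 (0.0769) or vaseline replicates 1 and 2 (0.0772 each), and its log2 fold change was 2.30 without vaseline replicate 3. That of Ccr9 (adjusted p = 0.0102) was lost without bergapten replicate 2 (0.055). Over the alternatives the adjusted p ran from 0.00227 to 0.0772 for Ccl3 and from 0.00219 to 0.055 for Ccr9.

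Further receptors were higher with bergapten than with vaseline. Ccr2 rose by 0.84 (SE 0.14, adjusted p = 0.00109), Cx3cr1 by 0.84 (SE 0.19, adjusted p = 0.00569) and Ccr6 by 1.22 (SE 0.33, adjusted p = 0.0131). For each of these, all bergapten libraries stood above all vaseline libraries. The adjusted p of Ccr6 was 0.0689 without bergapten replicate 2 and 0.06 without vaseline replicate 3, in a range of 0.00382 to 0.0689. Of the T cell markers 9 of 10 rose and none fell here, and 2 of 4 tested B cell markers rose. Of the monocyte and macrophage markers 4 of 9 rose and none fell. Of the dendritic and Langerhans cell markers 3 of 11 rose and 1 fell. The part of these cell types in the receptor values was not tested. Cxcr3, Xcr1 and Ccr8 did not pass against vaseline (adjusted p = 0.0782, 0.469 and 0.443). The p of Cxcr3 was 0.0421 without IMQ replicate 2 and 0.0348 with only the 6 libraries compared, in a range of 0.0348 to 0.275.

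The ligands that were lower with bergapten than with vaseline fell into those that IMQ alone also lowered and those that it did not. Ccl24 (-3.31, SE 0.31, adjusted p = 5.06e-05), Ccl11 (-1.33, SE 0.16, adjusted p = 0.00013), Xcl1 (-1.84, SE 0.41, adjusted p = 0.00503) and Ccl21a (-0.57, SE 0.15, adjusted p = 0.0128) were low in both comparisons with vaseline. Ccl6 (-1.43, SE 0.27, adjusted p = 0.0031) and Ccl9 (-1.48, SE 0.27, adjusted p = 0.00254) passed against vaseline with bergapten and not with IMQ alone (adjusted p = 0.434 and 0.986), and passed between bergapten and IMQ. Ccl8 (-1.70, SE 0.53, adjusted p = 0.0333) and Ccl17 (-1.74, SE 0.60, adjusted p = 0.0421) also passed against vaseline with bergapten and not with IMQ alone, but the difference between bergapten and IMQ itself did not pass (adjusted p = 0.453 and 0.765). The call of Ccl8 was lost, among others, with no filter (0.108) and without each bergapten replicate, IMQ replicate 3 or each vaseline replicate (0.0521 to 0.0927), in a range of 6.99e-07 to 0.108. That of Ccl17 was lost, among others, without bergapten replicates 1 (0.0945) and 2 (0.128) or vaseline replicates 1 (0.12) and 3 (0.0925), in a range of 0.0051 to 0.128.

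Among receptors only Ccr3 was lower with bergapten than with vaseline (-1.37, SE 0.47, adjusted p = 0.0402). Its call was lost without bergapten replicates 1 (0.118), 2 (0.0501) and 3 (0.107) or vaseline replicates 2 (0.12) and 3 (0.105), in a range of 0.00354 to 0.12. Ackr4 (-2.16, SE 0.28, adjusted p = 0.000303), Ackr3 (-1.38, SE 0.19, adjusted p = 0.000356), Ackr2 (-1.40, SE 0.24, adjusted p = 0.00121) and Ackr1 (-0.86, SE 0.19, adjusted p = 0.00469) were lower in every bergapten library than in any vaseline library, and these 4 calls held in each alternative.

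Several genes did not pass against vaseline over all libraries but did in an alternative. Without IMQ replicate 2 this was so for Ccl27a (-1.74; adjusted p = 0.0929, and 7.61e-05 without it, in a range of 8.28e-07 to 0.233, also under 0.05 without IMQ replicate 3 (0.0401)), Cxcl14 (0.0789, and 0.000221 without it, in a range of 0.000221 to 0.207) and Cxcl10 (0.133, and 0.0194 without it, in a range of 0.0146 to 0.314). In each of these genes every bergapten library was below every vaseline library. Ccl2 and Ccl7 were under 0.05 without vaseline replicate 1 (0.0425 and 0.00975, against 0.189 and 0.12 over all libraries), Ccl12 without IMQ replicate 3 (0.0474, against 0.103) and Ccr4 without IMQ replicate 1 (0.0231, against 0.121). Their ranges over the alternatives were 0.0425 to 0.598, 0.00975 to 0.428, 0.0407 to 0.253 and 0.0116 to 0.297. With only the 6 libraries compared, Ccl27a (8.28e-07), Cxcl14 (0.000249), Cxcl10 (0.0146), Ccl12 (0.0407) and Ccr4 (0.0116) were also under 0.05. So were Cxcl9 (0.00738, against 0.344) and Cx3cl1 (0.0391, against 0.0999), with all bergapten libraries below all vaseline libraries. Both stayed above 0.05 when each library was left out (0.104 to 0.513, and 0.051 to 0.212).

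The stretches of neighbouring genes described here did not move as wholes, although some direct neighbours moved together. On chromosome 9 (GRCm39, 123507504 to 123913594) a stretch of 406 kb holds 7 receptor genes in the order Ccr9, Cxcr6, Xcr1, Ccr1, Ccr1l1, Ccr3 and Ccr2. With IMQ, Ccr9 and Cxcr6 rose while Xcr1 and Ccr3 fell. With bergapten against IMQ, Xcr1 and Ccr2 rose and their tested neighbours did not pass. On chromosome 11 (83416604 to 83555509) a stretch of 139 kb holds Ccl5, Ccl9, Ccl6, Ccl3 and Ccl4. Here Ccl3 and Ccl4 rose with IMQ and Ccl9 and Ccl6 fell with bergapten, so different neighbours passed in each comparison. A second stretch of chromosome 11 (81926397 to 82196516, 270 kb) holds Ccl2, Ccl7, Ccl11, Ccl12, Ccl8 and Ccl1, of which only Ccl11 passed with IMQ and none between bergapten and IMQ.

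**Figure D5:**
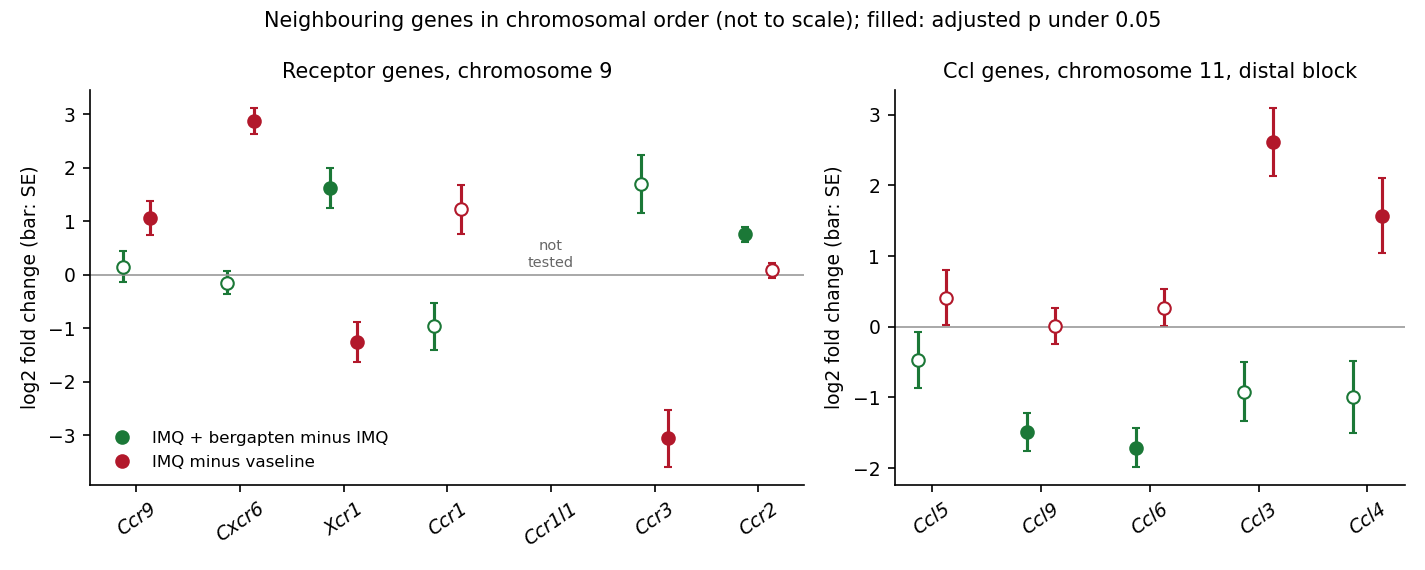
Log2 fold changes (bars: SE) of the receptor genes on chromosome 9 and of the distal Ccl genes on chromosome 11, in chromosomal order and not to scale, for IMQ and bergapten minus IMQ and for IMQ minus vaseline. Filled points passed the adjusted p; Xcr1 and Ccr3 lie below 0 in IMQ minus vaseline between neighbours above 0, and Ccl9 and Ccl6 are the filled points below 0 in IMQ and bergapten minus IMQ.

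The signalling genes below the receptors were mostly higher in challenged skin. Of 40 tested genes of chemokine receptor signalling (G protein subunits, kinases, arrestins and cytoskeletal regulators), 27 rose and 2 fell in IMQ against vaseline (backgrounds of 23.0% and 20.2%), with a median of 0.49, against 0.03 over all genes tested. Among them were Vav1, an exchange factor of leukocytes (1.51, SE 0.13, adjusted p = 1.78e-05), Pik3r5, the regulatory subunit of the kinase below G proteins (1.65), Ptk2b (1.07) and Arrb2, an arrestin that ends receptor signals (1.15). In bergapten against IMQ 6 rose and none fell (backgrounds of 2.18% and 2.65%), with a median of 0.17, against -0.00 over all genes tested. Those that rose included Dock8 (0.48, adjusted p = 0.0126), Prex1 (0.62, adjusted p = 0.0163), Pik3cd (0.62, adjusted p = 0.0257) and Grk3, a kinase that desensitises receptors (0.81, adjusted p = 0.0278). In bergapten against vaseline 31 rose and 2 fell (backgrounds of 20.9% and 19.5%), with a median of 0.80, against 0.01 over all genes tested. Many of these genes are expressed by leukocytes in general, and the part of cell numbers in these values was not tested.

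Other chemoattractants and their receptors moved in both directions. Of 24 tested genes, 12 rose and 4 fell in IMQ against vaseline (median 0.73), 1 rose and 3 fell in bergapten against IMQ (median -0.24), and 10 rose and 6 fell in bergapten against vaseline (median -0.17). The backgrounds are those given for the signalling genes, and the shares that fell against vaseline, 4 and 6 of 24, were near them. With IMQ, Mif, a cytokine that also binds Cxcr4 (1.13, adjusted p = 3.88e-05), and the leukotriene B4 receptors Ltb4r1 (1.71, adjusted p = 4.1e-05) and Ltb4r2 (1.54, adjusted p = 3.98e-05) rose. Dpp4, a protease that trims and inactivates several chemokines, fell (-2.11, adjusted p = 1.29e-06), with a mean of 57.4 CPM with bergapten, 43 CPM with IMQ and 186 CPM with vaseline. Between bergapten and IMQ, Cd74 rose (1.12, adjusted p = 0.00961), and S1pr1, by which lymphocytes leave tissues (-0.92, adjusted p = 0.0108), Cytl1 (-1.31, adjusted p = 0.0194) and the platelet chemokine Ppbp (-2.28, adjusted p = 0.0243) fell. Ppbp averaged 0.198 CPM with bergapten and 0.976 CPM with IMQ, so its fold rests on few reads.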

How the data were processed

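RNA was sequenced from 9 libraries of mouse back skin, 3 per group, grouped by their titles. The authors deposited read counts per gene and FPKM, and a quality sheet with read totals, percent values and a mean quality score per library. Reads were processed with Trimmomatic, HISAT2 and HTSeq 0.6.0 on GRCm39, per the submitters' processing notes. Whether the counting used strand, and how reads matching several genes were treated, is not given in the sources used here. The count table had 56861 rows, of which 2 name no gene and were left out.

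Counts were tested with edgeR 4.0.16 in R 4.3.3 (TMM scaling, filterByExpr at min.count 10 and min.total.count 15, robust quasi-likelihood fit of all 9 libraries with 1 mean per group), which kept 18005 genes, with Benjamini-Hochberg adjustment over all of them and a threshold of 0.05. The common biological coefficient of variation was 0.187. The SE is the size of the log2 fold change divided by the square root of the F statistic. The procedure was tested on simulated data. The FPKM values made by the authors served only to compare levels between genes. The alternatives were RLE size factors, DESeq2 1.42.0, no filter, only the 6 libraries compared, a replicate block and leaving out each library. Tables and figures were made with Python 3.11.15 and pandas 2.3.3.

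Members, gene lists and tests were chosen with earlier results of these data known. Named in full are members that passed in any comparison and the ligands and receptors of a list chosen with them; 1 member counted in the totals is not reported here by name. From the 2 pathway lists (receptor signalling, other chemoattractants) up to 4 genes per comparison with the smallest p are named.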

Additional observations from a re-analysis of the deposited data

How the results depend on the processing

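No called gene changed direction under any of the 14 alternatives. For IMQ with bergapten against IMQ, the number of higher genes (5) was 0 with only the 6 libraries compared, 1 with the replicate block, and 0 to 6 when each library was left out. The number of lower genes (2) was 4 with DESeq2, 1 with no filter, 1 with only the 6 libraries compared, and 0 to 3 when each library was left out. Over all genes, 869 were called in that comparison, 1802 with DESeq2, 130 with only the 6 libraries compared, 489 with the block, 139, 332 and 176 without bergapten replicates 1, 2 and 3, 1711 without IMQ replicate 3, and 443 to 480 without 1 vaseline library. For IMQ with bergapten against vaseline, the number of lower genes (13) was 20 with only the 6 libraries compared and 10 to 16 when each library was left out, and of higher genes (10) 7 to 12. For IMQ against vaseline, leaving out each library gave 7 to 11 higher and 10 to 15 lower genes. Calls held in every alternative for 14 of 22 genes in IMQ against vaseline, 0 of 7 in IMQ with bergapten against IMQ, and 17 of 23 in IMQ with bergapten against vaseline. A further 8, 6 and 11 genes in the same order passed only in an alternative. There were 67 pairs of gene and comparison that passed in no fit. Among them the sign differed from that over all libraries in 55 of 937 alternative fits. No rise or fall is stated for them. Where their libraries did not overlap, as for Ccl3 between bergapten and IMQ, only the order of the libraries is given. The cause of these shifts was not tested.

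The samples share only a replicate number: same-numbered libraries had correlations of -0.0909 to 0.176 in their deviations from the group means, so the numbers were not taken to pair them. With the replicate block the adjusted p was 0.0537 for Ccl21a, 0.0531 for Ccr8, 0.0643 for Cxcr3 and 0.061 for Xcr1 in IMQ with bergapten against IMQ, and 0.0641 for Ccl8 and 0.0814 for Ccl17 in IMQ with bergapten against vaseline. With 3 libraries per group and counts of a few reads for genes such as Xcl1, Ccr3 and Ccl17, small differences were not detectable at this depth.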
